A study of Mus musculus with 9 samples.

Results

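The proteasome genes were taken as those whose symbol, reached through the RefSeq accession of the array probe, starts with Psma, Psmb, Psmc, Psmd, Psme or Psmf followed by a digit. This rule found 46 genes with 56 probes, and 44 of them were among the 19146 genes tested on the arrays. It held 39 standard subunits and cofactors, of which 37 were tested, and the 5 interferon-inducible genes of the immunoproteasome, Psmb8, Psmb9, Psmb10, Psme1 and Psme2, which were all tested and are given apart. The other 2 genes, Psmc3ip and Psme3ip1, meet the rule by their letters. They encode a meiotic recombination factor and a partner of the PA28 gamma activator, and are no part of the counts of subunits. Psma8, an alpha subunit of the testis, was well above background on 2 arrays, and Psmb11, the catalytic subunit of the thymic cortex, on 0 arrays, so neither was tested.

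The levels were compared in CD4+ T cells of BALB/c mice in 3 sorted groups of 3 arrays each. Th17 cells were CD45RB low with IL-17A and no interferon gamma captured on their surface, Th1 cells were CD45RB low with interferon gamma and no IL-17A, and naive cells were CD45RB high. In all 3 groups, spleen and lymph node cells had been enriched for CD4 on magnetic columns and treated for 3 h with PMA, a phorbol ester, at 10 ng/ml and the calcium ionophore ionomycin at 500 ng/ml before the sort, so the naive cells are stimulated cells as well. Because the effector gates differ from the naive gate in CD45RB as well as in cytokine, a change against naive cells cannot be assigned to either. The labels do not say that replicates came from separate animals, and the p-values then cover the spread among these arrays alone, which may be technical.

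The proteasome degrades proteins that carry ubiquitin. Its 20S core is a barrel of outer alpha rings, which gate the entry, and inner beta rings, in which Psmb5, Psmb6 and Psmb7 are the catalytic subunits. The 19S cap binds ubiquitin chains, removes them and unfolds the substrate with a ring of Psmc ATPases. In lymphocytes and in cells exposed to interferon gamma, Psmb8, Psmb9 and Psmb10 can replace Psmb5, Psmb6 and Psmb7 in newly built cores, and Psme1 with Psme2 forms the PA28 activator. These forms shape the peptides shown on MHC class I.

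Between 53.4% and 58.4% of probes passed as well above background on a given array, and every tested proteasome gene was so on all 9 arrays. Within a group, replicate arrays correlated at Pearson r of 0.98 to 0.99 across genes. The median SD of a standard subunit over 3 arrays was 0.12 in Th17, 0.08 in Th1 and 0.07 in naive cells on the log2 scale, against 0.17, 0.15 and 0.12 for all genes above background on every array. Naive arrays 1 to 3 and Th1 array 1 shared slide 1, Th1 arrays 2 and 3 shared slide 2 with Th17 arrays 1 and 2, and Th17 array 3 lay alone on slide 3. Naive and Th17 cells shared no slide. Cd4 was above background on all arrays, no NK marker of 3 was tested and Cd8a was not above background on enough arrays to be tested. Cd8b1 was the 1 tested marker of CD8 T cells, at a linear level of 0.0545 to 0.0758 in Th17, 0.0639 to 0.0746 in Th1 and 0.573 to 0.685 in naive cells, as a ratio to the 75th percentile.

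Markers of other cell types also differed between the groups. The sums below are of linear levels over all markers of a list with a probe, tested or not. Of 6 myeloid markers 4 were tested, with sums of 139 to 161 in Th17, 153 to 171 in Th1 and 112 to 120 in naive cells. Csf3r, at 6.57 to 7.12 on the log2 scale, made up most of each of these sums. Among the 4 markers Cd14 was 2.47 higher on the log2 scale in Th17 than in Th1 cells (adjusted p = 0.00274). It was 3.06 higher in Th17 than in naive cells (adjusted p = 0.000187). No other myeloid marker was called in Th17 against Th1 cells. Against naive cells Csf1r fell in Th1 and Th17 cells (-0.72 and -0.77, adjusted p = 0.00317 and 0.00225). Itgam (1.07 and 0.80) and Csf3r (0.45 and 0.32) were called higher in both. Of 6 B cell markers 2 were tested, with sums of 0.745 to 0.998 in Th17, 0.924 to 1.14 in Th1 and 0.363 to 0.51 in naive cells. Cd22 rose in both effector groups against naive cells (1.18 in Th17 and 1.37 in Th1 cells). Cd79a, the other tested, was not called (-0.23 in Th17 and 0.27 in Th1 cells). Of 5 dendritic cell markers 3 were tested, with sums of 180.0 to 215 in Th17, 177 to 201 in Th1 and 162 to 169 in naive cells. Siglech alone, at 7.33 to 7.75 on the log2 scale, made up nearly all of each of these sums. Xcr1, above background on 3 of the 9 arrays, had levels of -4.21, -2.85 and -4.43 in Th1 cells. It lay between -7.62 and -6.73 on the other arrays. As those values are near the floor, its calls in Th1 cells are not read as a test. Zbtb46 was called lower in Th17 than in naive cells (-0.64, adjusted p = 0.0152), and Siglech was not called. Of 4 erythroid markers 1 was tested, Hba-a1, which was 4.49 higher in Th17 than in naive cells (adjusted p = 0.0139) with sums over its list of 0.889 to 2.78 in Th17, 0.0452 to 1.3 in Th1 and 0.0451 to 0.112 in naive cells. The part of these markers in the results on proteasome genes was not tested.

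Most standard subunits had their lowest group mean in Th1 cells, and the differences were small. Below, a level is log2 intensity minus that of the array's 75th percentile, a change is a log2 fold change ± SE from limma, and a gene is called where its adjusted p is under 0.05 (Benjamini-Hochberg over all genes tested, two-sided). The group mean was lowest in Th1 cells for 26 of the 37 tested standard subunits, lowest in Th17 cells for 4 and in naive cells for 7. It was highest in Th17 cells for 18, in naive cells for 18 and in Th1 cells for 1. The order of the groups was not counted over all genes. The median of all genes was also lower in Th1 than in naive cells (-0.09). After quantile normalization the median change in Th1 against naive cells was -0.12 for the subunits and -0.07 for all genes. The median level over the 37 subunits was 4.14, 4.02 and 4.15 on the Th17 arrays, 3.82, 3.86 and 3.88 on the Th1 arrays, and 3.91, 3.93 and 3.88 on the naive arrays. The Th17 arrays therefore lay above all others in this median, and the Th1 and naive arrays overlapped. The heat map of all tested subunits shows both the lower levels on Th1 arrays and the subunits that part from them.

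**Figure D1:**
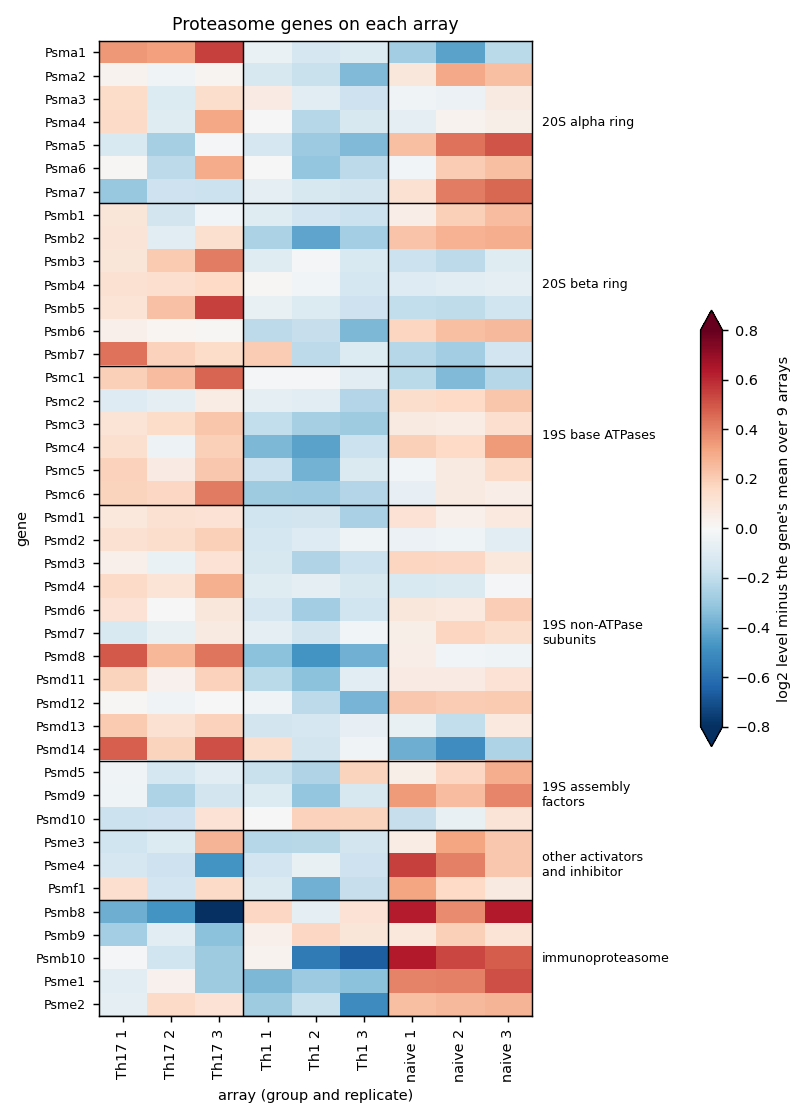
Level of each tested proteasome gene on each array, as log2 level minus the gene's mean over the 9 arrays (red above, blue below, colours end at 0.8 either way), with genes in rows by place in the complex and arrays in columns by group. Most standard subunits are blue on the 3 Th1 arrays, Psmd8 and Psma1 are red on the 3 Th17 arrays, and the immunoproteasome rows are red on the 3 naive arrays.

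Th17 cells had higher levels of standard subunits than Th1 cells, with 7 of the 9 calls in the 19S cap. Of the 37 tested, 9 were called higher, where 8.25% of all genes were, and 0 were called lower, where 7.5% of all genes were. In limma at an unadjusted p under 0.05 the counts were 19 higher and 0 lower. No share of all genes was taken at that threshold, here or for the unadjusted counts below. The shares given for calls do not apply to those counts. The change was above 0 for 33 of the 37, with a median of 0.26 and a range of -0.20 to 0.79, against a median of 0.01 over all genes. All 3 Th17 arrays lay above all 3 Th1 arrays for 21 subunits and below them for 1, Psma7, where 18.8% and 16.6% of all genes did so. Of the 9 calls, 2 (Psmc6 and Psmd8) held without any single array. The count fell to 2 without Th1 replicate 2, where 5.31% of all genes were called higher. The share of subunits called was then near that of all genes. The count fell to 4 without Th1 replicate 1, Th17 replicate 3 or any single naive array, where 6.41% to 7.59% of all genes were called. Without Th17 replicate 1 the count was 5, where 6.35% were. With slide as a block 4 of the 9 held, Psma1, Psmc3, Psmc6 and Psmd8, and within slide 2, with 2 arrays per group, 1 held, Psmd8.

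As scaled here, Th1 cells had lower levels of standard subunits than naive cells, with calls in every section of the complex. Under the other scalings given in this paragraph, the share called lower was below that of all genes. Of the 37 tested, 21 were called lower and 1, Psmd14, higher, where 30.4% and 23.5% of all genes were. The median change was -0.29 (range -0.65 to 0.37), against -0.09 over all genes. The groups did not overlap for 22 subunits that were lower and 3 that were higher, where 37.3% and 28.1% of all genes did not. The count of calls depends on how arrays are scaled. After quantile normalization it was 7 lower and 6 higher, where 27.3% and 23.3% of all genes were. With the 75th percentile taken over probes above background on all arrays it was 8 lower and 3 higher. In that scaling 23.4% and 28.4% of all genes were called lower and higher, and the median of all genes moved to 0.05. Of the 21 calls, 11 held without any single array. The count fell to 12 without Th1 replicate 2, where 25.6% of all genes were called lower. It fell to 13 without naive replicate 2 or 3, where 25.1% and 25.7% were. With slide as a block, a fit in which 21.7% of all genes were called lower, 6 of the 21 held. That estimate, like the one within slide 1, sets Th1 array 1 alone against the 3 naive arrays and takes its spread from other arrays, so it is 1 check and not a replicated one.

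In Th17 against naive cells, the share of standard subunits called higher was close to that of all genes. Of the 37 tested, 9 were called higher, where 24.4% of all genes were, and 4 lower, where 29.7% of all genes were. The median change was -0.03 (range -0.65 to 0.77), against -0.09 over all genes, and it turned to 0.04 after quantile normalization, to 0.07 with the other percentile and to 0.03 with slide as a block. The groups did not overlap for 12 subunits that were higher and 10 that were lower, where 28.4% and 34.9% of all genes did not. With slide as a block 3 of the 9 higher calls held, Psma1, Psmb7 and Psmd14, and 0 of the 4 lower calls (1 subunit lower at an unadjusted p under 0.05 in that limma fit). As these groups shared no slide, that estimate joins the Th17 and Th1 difference on slide 2 to the Th1 and naive difference on slide 1.

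**Figure D2:**
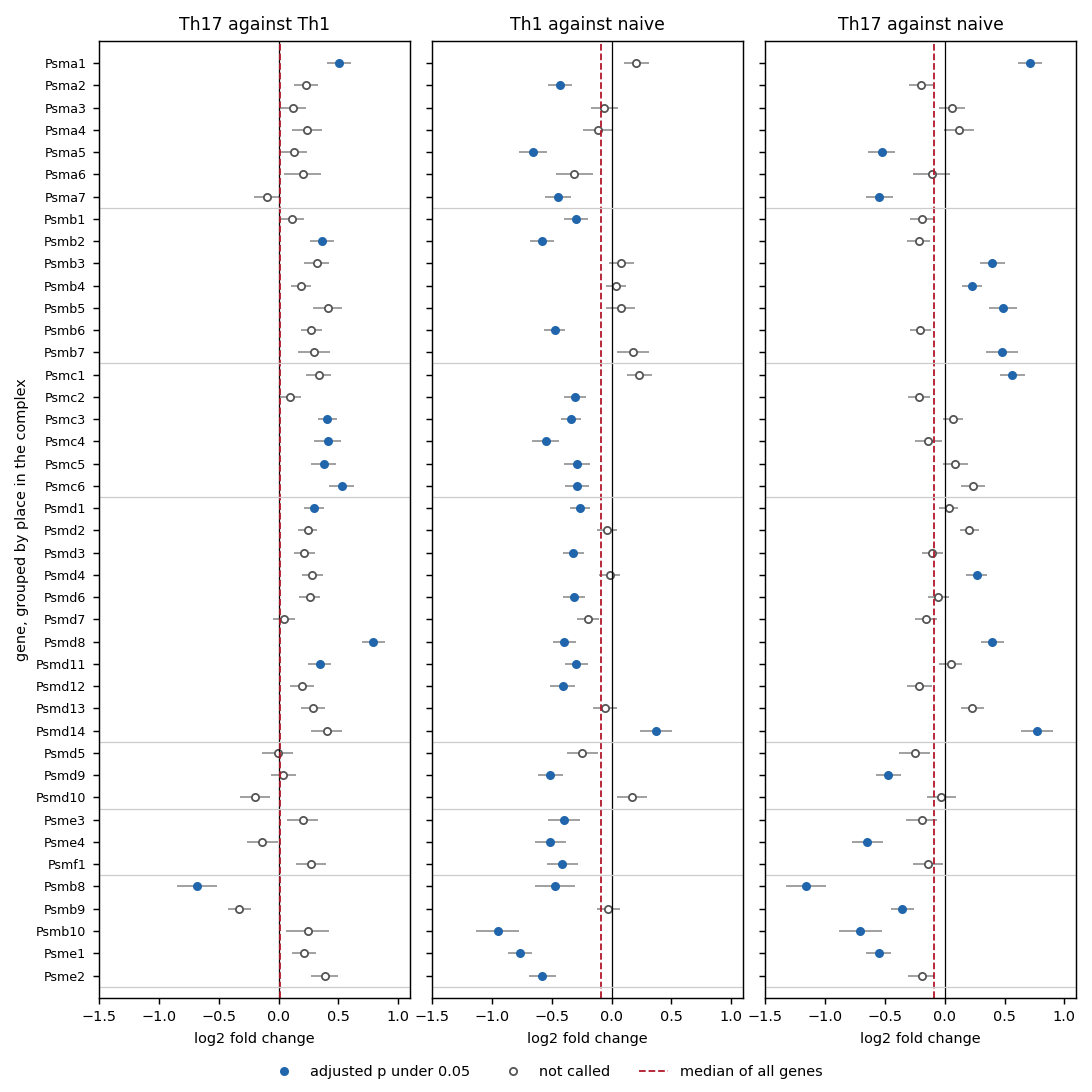
Log2 fold change (points) with SE (lines) of each tested proteasome gene in the 3 comparisons, with filled points where the adjusted p was under 0.05 and a dashed line at the median of all genes. In Th17 against Th1 cells nearly all standard subunits lie right of 0 and Psmb8 lies furthest left at -0.68, and against naive cells Th1 points lie mostly left of the dashed line while Th17 points spread from -1.16 to 0.77.

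In the outer alpha ring, Psma1 rose in Th17 cells while Psma5 and Psma7 fell in both effector groups. Psma1 had levels of 4.39, 4.37 and 4.59 in Th17 cells, 3.99, 3.91 and 3.93 in Th1 cells, and 3.77, 3.61 and 3.83 in naive cells. The 3 groups did not overlap on any pair. Its change was 0.51 ± 0.10 in Th17 against Th1 cells (adjusted p = 0.0123), 0.21 ± 0.10 in Th1 against naive cells, which was not called (adjusted p = 0.121), and 0.71 ± 0.10 in Th17 against naive cells (adjusted p = 0.000546). The call in Th17 against Th1 cells was lost without Th1 replicate 2 (adjusted p = 0.0505).

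Psma5 had levels of 4.63, 4.48 and 4.73 in Th17 cells, 4.61, 4.46 and 4.39 in Th1 cells, and 4.99, 5.19 and 5.25 in naive cells. Both effector groups lay below all naive arrays and overlapped each other. It fell by 0.65 ± 0.12 in Th1 against naive cells (adjusted p = 0.00175) and by 0.53 ± 0.12 in Th17 against naive cells (adjusted p = 0.00503), and its change in Th17 against Th1 cells was 0.13 ± 0.12 (adjusted p = 0.503). With slide as a block the Th17 value against naive cells was -0.40 (adjusted p = 0.176). Psma7 fell by 0.45 in Th1 and by 0.55 in Th17 cells against naive cells, and Psma2 fell by 0.43 in Th1 cells. All 3 calls were lost with slide as a block, and both Th1 calls after quantile normalization. Psma3, Psma4 and Psma6 were called in no comparison, with changes between -0.31 and 0.24. A second Psma4 probe lay at -7.83 on Th17 array 2 and between 3.54 and 3.94 on the other 8 arrays.

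In the inner beta ring, the subunits split by comparison: 4 of the 7 tested rose in Th17 against naive cells, where 24.4% of all genes did, and 3 fell in Th1 against naive cells, where 30.4% did. Psmb5, the chymotrypsin-like catalytic subunit, had levels of 6.41, 6.53 and 6.85 in Th17 cells, 6.24, 6.19 and 6.13 in Th1 cells, and 6.10, 6.09 and 6.14 in naive cells. All Th17 arrays lay above the others, and the Th1 and naive arrays overlapped. It rose by 0.49 ± 0.12 in Th17 against naive cells (adjusted p = 0.00913; 0.44 with slide as a block, adjusted p = 0.0811), and its change was 0.41 ± 0.12 in Th17 against Th1 cells (adjusted p = 0.054) and 0.08 ± 0.12 in Th1 against naive cells (adjusted p = 0.625). A second, dimmer probe of Psmb5 gave 0.48 in Th17 against naive cells (adjusted p = 0.0029) and 0.44 in Th17 against Th1 cells, where it was called (adjusted p = 0.0151).

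Psmb6, the caspase-like subunit, had levels of 6.11, 6.09 and 6.08 in Th17 cells, 5.86, 5.89 and 5.71 in Th1 cells, and 6.24, 6.31 and 6.33 in naive cells. No pair of groups overlapped, with Th1 cells lowest and naive cells highest. It fell by 0.48 ± 0.09 in Th1 against naive cells (adjusted p = 0.00208), a call lost after quantile normalization (-0.23, adjusted p = 0.0658). Its change was 0.27 ± 0.09 in Th17 against Th1 cells (adjusted p = 0.0709) and -0.20 ± 0.09 in Th17 against naive cells (adjusted p = 0.0798).

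Psmb7, the trypsin-like subunit, had levels of 3.84, 3.59 and 3.55 in Th17 cells, 3.61, 3.20 and 3.29 in Th1 cells, and 3.18, 3.13 and 3.25 in naive cells. The Th17 arrays lay above all naive arrays, and Th1 arrays overlapped both. It rose by 0.48 ± 0.13 in Th17 against naive cells (adjusted p = 0.0161; 0.90 with slide as a block, adjusted p = 0.0177), a call lost without naive replicate 2 or Th17 replicate 1 (adjusted p up to 0.0544). The other changes were 0.30 ± 0.13 in Th17 against Th1 cells (adjusted p = 0.179) and 0.18 ± 0.13 in Th1 against naive cells (adjusted p = 0.287).

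Among the noncatalytic beta subunits, Psmb2 moved most. Its levels were 1.76, 1.57 and 1.78 in Th17 cells, 1.40, 1.23 and 1.38 in Th1 cells, and 1.88, 1.93 and 1.94 in naive cells, with no overlap between any groups. It fell by 0.58 ± 0.10 in Th1 against naive cells (adjusted p = 0.00134), with a value of -0.52 with slide as a block (adjusted p = 0.024), where Th1 is array 1 alone. It rose by 0.36 ± 0.10 in Th17 against Th1 cells (adjusted p = 0.0394), and that call held without 1 array, Th17 replicate 2, and was lost without each of the other 8 (adjusted p up to 0.138). Psmb3 and Psmb4 rose in Th17 against naive cells by 0.40 and 0.22, the call of Psmb4 being lost without each array but Th1 replicate 3. Psmb1 fell by 0.30 in Th1 against naive cells, a call lost without any single Th1 array or naive replicate 2 or 3.

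The ATPases of the 19S base had the highest share of calls in Th17 against Th1 cells, 4 of 6 higher against 8.25% of all genes, and 5 of 6 fell in Th1 against naive cells, against 30.4% of all genes. Psmc6 had levels of 1.96, 1.94 and 2.19 in Th17 cells, 1.49, 1.48 and 1.54 in Th1 cells, and 1.71, 1.85 and 1.83 in naive cells. No pair of groups overlapped, with the naive arrays between the others. It rose by 0.53 ± 0.10 in Th17 against Th1 cells (adjusted p = 0.00978; 0.44 with slide as a block, adjusted p = 0.0457, and adjusted p = 0.108 within slide 2). It fell by 0.29 ± 0.10 in Th1 against naive cells (adjusted p = 0.0386), a call lost without any single Th1 array or naive replicate 2 or 3 (adjusted p up to 0.111), and with slide as a block (-0.30, adjusted p = 0.0839).

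Psmc4 had levels of 3.63, 3.46 and 3.69 in Th17 cells, 3.14, 3.07 and 3.33 in Th1 cells, and 3.69, 3.66 and 3.84 in naive cells. The Th1 arrays lay below all others, and the Th17 and naive arrays overlapped. It fell by 0.55 ± 0.11 in Th1 against naive cells (adjusted p = 0.00358), and array 1 alone, on the naive slide, was at -0.59. In Th17 against Th1 cells it was at 0.41 ± 0.11 (adjusted p = 0.0416), a call that held without Th1 replicate 3 or Th17 replicate 2 and was lost without each of the other 7 arrays. Psmc3 was 0.41 higher in Th17 than in Th1 cells (adjusted p = 0.0129, and 0.0526 without Th1 replicate 2) and at -0.34 in Th1 against naive cells (adjusted p = 0.0091), and its second probe was called the same way in both. The Th1 call was lost after quantile normalization (-0.11, adjusted p = 0.307), with the other percentile and with slide as a block (-0.29, adjusted p = 0.0815). Psmc5 was called in the same directions with adjusted p = 0.0456 in both comparisons, and the first call was lost without each of the 9 arrays and the second without each but Th1 replicate 3 and Th17 replicate 3.

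Psmc1 was the ATPase that parted from this pattern. It had levels of 5.43, 5.49 and 5.70 in Th17 cells, 5.23, 5.23 and 5.15 in Th1 cells, and 5.02, 4.89 and 5.01 in naive cells, so the 3 groups did not overlap and naive cells were lowest. It rose by 0.57 ± 0.10 in Th17 against naive cells (adjusted p = 0.00186; 0.53 with slide as a block, adjusted p = 0.0546). In Th17 against Th1 cells Psmc1 was not called (0.33, adjusted p = 0.061), but its second probe was (0.33, adjusted p = 0.0385). Psmc2 fell by 0.31 in Th1 against naive cells, a call lost without Th1 replicate 3 or naive replicate 2 or 3. The second Psmc2 probe was not called there (-0.28, adjusted p = 0.0556). Psmc2 was called in no other comparison.

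Among the non-ATPase subunits of the 19S cap, Psmd8 and Psmd14 stood out. Psmd8, a subunit of the lid, had levels of 3.88, 3.66 and 3.82 in Th17 cells, 3.06, 2.92 and 3.01 in Th1 cells, and 3.45, 3.37 and 3.36 in naive cells. The 3 groups were fully separated, with Th17 cells highest and Th1 cells lowest. Its change in Th17 against Th1 cells, 0.79 ± 0.10 or 1.73-fold (adjusted p = 0.00111), was the highest of any proteasome gene tested there, and it also passed with slide as a block (0.81, adjusted p = 0.0095) and within slide 2 (adjusted p = 0.0476). Psmd8 fell by 0.39 ± 0.10 in Th1 against naive cells (adjusted p = 0.00858) and rose by 0.40 ± 0.10 in Th17 against naive cells (adjusted p = 0.00843). With slide as a block neither of these was called, at -0.33 (adjusted p = 0.101) and 0.48 (adjusted p = 0.0991).

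Psmd14, the deubiquitinase that removes ubiquitin chains at the entry, had levels of 3.03, 2.73 and 3.07 in Th17 cells, 2.69, 2.40 and 2.52 in Th1 cells, and 2.16, 2.05 and 2.30 in naive cells. Its groups were also separated, but in a different order, with naive cells lowest. It rose by 0.77 ± 0.13 or 1.71-fold in Th17 against naive cells (adjusted p = 0.00144; 0.94 with slide as a block, adjusted p = 0.0278). In Th1 against naive cells it rose by 0.37 ± 0.13 (adjusted p = 0.0433), a call lost without Th1 replicate 1 or 3, Th17 replicate 1, or naive replicate 1 or 2 (adjusted p up to 0.134), and its change in Th17 against Th1 cells was 0.40 ± 0.13 (adjusted p = 0.0769).

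Of the other 9 non-ATPase subunits, Psmd1, Psmd3, Psmd6, Psmd11 and Psmd12 fell in Th1 against naive cells by 0.26 to 0.41, of which Psmd12 held without any single array, and all 5 calls were lost with slide as a block. All 4 others lost the call without Th1 replicate 2, and each also without 1 or more naive arrays. Psmd1, a scaffold of the base, and Psmd11, a lid subunit, were also called higher in Th17 than in Th1 cells (0.30 and 0.35), Psmd1 losing that call without each of the 9 arrays and Psmd11 without each but Th1 replicate 3. Psmd4, a ubiquitin receptor, rose by 0.27 in Th17 against naive cells (adjusted p = 0.0327), a call lost without Th1 replicate 2, Th17 replicate 1 or 3, or any single naive array (adjusted p up to 0.0924). Psmd2, Psmd7 and Psmd13 were called in no comparison.

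Of the 6 assembly factors, activators and inhibitors outside the 26S particle, 4 fell in Th1 and 2 in Th17 cells against naive cells, where 30.4% and 29.7% of all genes fell, so the Th17 count is near that of all genes. Among the chaperones of 19S assembly, Psmd9 had levels of 0.77, 0.56 and 0.66 in Th17 cells, 0.70, 0.50 and 0.68 in Th1 cells, and 1.15, 1.06 and 1.20 in naive cells. It fell by 0.51 ± 0.10 in Th1 cells (adjusted p = 0.00325) and by 0.47 ± 0.10 in Th17 cells (adjusted p = 0.00484), and both effector groups lay below the naive arrays. With slide as a block the values were -0.44 (adjusted p = 0.0558) and -0.36 (adjusted p = 0.222). Psmd5 was not called, nor was Psmd10 by its brighter probe. The second Psmd10 probe was called higher in Th17 against naive cells (0.31, adjusted p = 0.0469), where the brighter gave -0.03. In Th17 against Th1 cells the second gave 0.25 and the brighter -0.20, neither called. Psme4, the nuclear activator PA200, fell by 0.51 and 0.65 in Th1 and Th17 cells by its brighter probe (adjusted p = 0.00999 and 0.00316), but its second probe gave -0.08 and -0.20, neither called (adjusted p = 0.658 and 0.241), and with slide as a block the Th17 call was lost (adjusted p = 0.0843). Psme3, the PA28 gamma activator, and Psmf1, an inhibitor of the core in vitro, fell in Th1 against naive cells by 0.39 and 0.41. The call of Psme3 was lost without any single Th1 array or naive replicate 2 or 3, and that of Psmf1 without Th1 replicate 2 or naive replicate 1 or 2.

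Most immunoproteasome genes fell in both effector groups, though some calls depended on the processing. Of the 5 genes, 4 fell in Th1 against naive cells and 4 fell in Th17 against naive cells, with medians of -0.58 and -0.55. Of all genes, 30.4% and 29.7% were called lower there. After quantile normalization 2 of the 4 Th1 calls held, Psmb10 and Psme1, and 4 of the 4 Th17 calls. With slide as a block 1 of the 4 Th17 calls held, Psmb8. For Th1 against naive cells that block rests on Th1 array 1 alone and is no replicated check. In Th17 against Th1 cells 1 was called lower, Psmb8, where 7.5% of all genes were, and 0 higher, where 8.25% were. The median was 0.21, and at an unadjusted p under 0.05 in limma 2 were lower and 1 higher. Th1 cells, sorted for secretion of interferon gamma, had 0 immunoproteasome genes called higher than naive cells in limma, where 23.5% of all genes were. At an unadjusted p under 0.05 in limma the count was 0 as well. The part of interferon gamma in these levels was not tested.

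Psmb8, the inducible counterpart of Psmb5, had levels of 3.11, 3.02 and 2.53 in Th17 cells, 3.67, 3.43 and 3.62 in Th1 cells, and 4.13, 3.88 and 4.14 in naive cells. The groups did not overlap, with Th17 cells lowest and naive cells highest, and Th17 array 3, alone on slide 3, was the lowest of all. It was 2.24-fold lower in Th17 than in naive cells (-1.16 ± 0.17, adjusted p = 0.00056), and with slide as a block the change was -0.84 (adjusted p = 0.03). Against Th1 cells, Th17 cells had Psmb8 at -0.68 ± 0.17 (adjusted p = 0.027), a call lost without any single Th1 array (adjusted p up to 0.0806), with slide as a block (-0.46, adjusted p = 0.0897) and within slide 2 (adjusted p = 0.132). In Th1 against naive cells it was at -0.48 ± 0.17 (adjusted p = 0.0396), lost without any single Th1 array or naive replicate 1 or 3 (adjusted p up to 0.122), after quantile normalization (-0.31, adjusted p = 0.211) and with slide as a block (-0.38, adjusted p = 0.0984).

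Psmb9, the counterpart of Psmb6, had levels of 3.97, 4.15 and 3.91 in Th17 cells, 4.28, 4.41 and 4.34 in Th1 cells, and 4.33, 4.43 and 4.35 in naive cells. The Th17 arrays lay below all others, and the Th1 and naive arrays overlapped. It fell by 0.35 ± 0.10 in Th17 against naive cells (adjusted p = 0.0146), a call lost without naive replicate 2 (adjusted p = 0.0526), with the other percentile (-0.26, adjusted p = 0.0692) and with slide as a block (-0.40, adjusted p = 0.134). Its change was -0.33 ± 0.10 in Th17 against Th1 cells (adjusted p = 0.0563) and -0.03 ± 0.10 in Th1 against naive cells (adjusted p = 0.837).

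Psmb10, the counterpart of Psmb7, had levels of 2.47, 2.33 and 2.20 in Th17 cells, 2.51, 1.92 and 1.83 in Th1 cells, and 3.12, 3.02 and 2.97 in naive cells. The naive arrays lay above all others, and Th1 array 1, which shared slide 1 with them, was the highest of the effector arrays. It fell 1.93-fold in Th1 against naive cells (-0.95 ± 0.18, adjusted p = 0.00237), with a change of -0.53 with slide as a block (adjusted p = 0.0207), which rests on Th1 array 1. In Th17 against naive cells it was at -0.71 ± 0.18 (adjusted p = 0.01), and with slide as a block at -0.0031 ± 0.17 (adjusted p = 0.991). In Th17 against Th1 cells it was at 0.24 ± 0.18 (adjusted p = 0.396), and at 0.52 with slide as a block (adjusted p = 0.0352).

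The PA28 activator genes fell most clearly in Th1 cells. Psme1 had levels of 5.13, 5.25 and 4.94 in Th17 cells, 4.86, 4.92 and 4.89 in Th1 cells, and 5.62, 5.62 and 5.73 in naive cells, with no overlap between any groups. It fell by 0.76 ± 0.10 in Th1 against naive cells (adjusted p = 0.000434; -0.80 for Th1 array 1 alone against the naive arrays of its slide) and by 0.55 ± 0.10 in Th17 against naive cells (adjusted p = 0.00226; 0.0588 with slide as a block). Psme2 had levels of 7.31, 7.54 and 7.51 in Th17 cells, 7.11, 7.21 and 6.89 in Th1 cells, and 7.63, 7.65 and 7.66 in naive cells. These groups were separated as well, in the same order as Psme1.

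Psme2 fell by 0.58 ± 0.11 in Th1 against naive cells (adjusted p = 0.0029; -0.54 for Th1 array 1 alone against the naive arrays of its slide), but its change was -0.11 after quantile normalization (adjusted p = 0.409). In Th17 against naive cells it was at -0.19 ± 0.11 (adjusted p = 0.183), where its second probe was called at -0.38 (adjusted p = 0.0136), and in Th17 against Th1 cells at 0.39 ± 0.11 (adjusted p = 0.0537), where its second probe was called at 0.41 (adjusted p = 0.0282). The plots of these levels by array show the opposite order of the effector groups for Psmb8 and Psmb9 against Psme1 and Psme2. By the brightest probe, Psmb8 alone of these was called between the effector groups, and Psme1 was at 0.21 (adjusted p = 0.208).

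**Figure D3:**
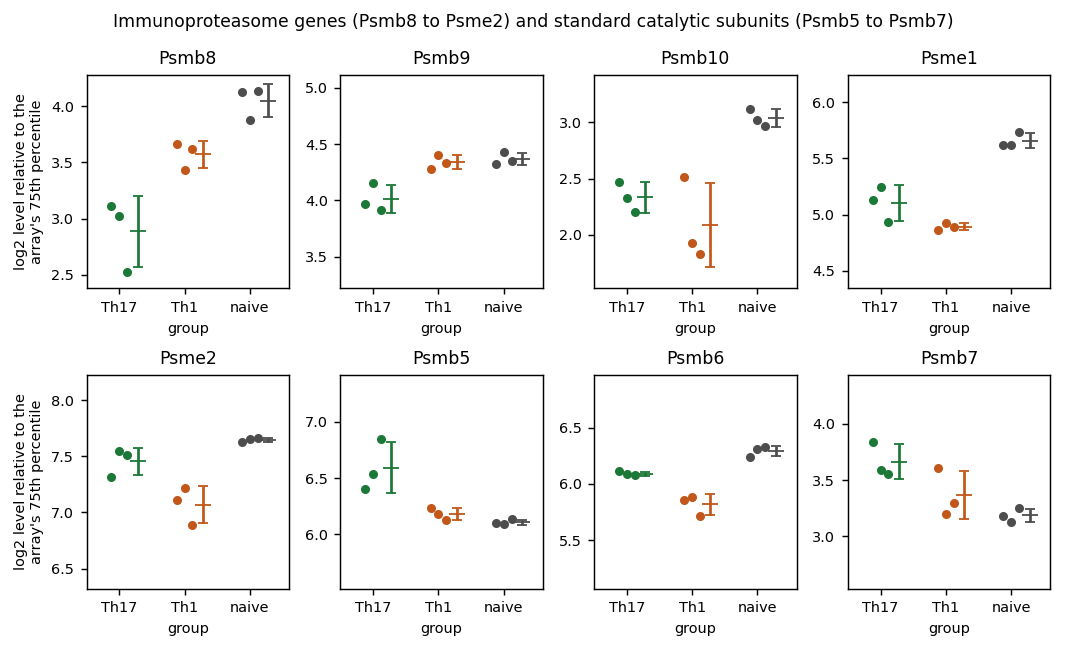
Level of the 5 immunoproteasome genes and the 3 standard catalytic subunits on each array (points) with group mean and SD (bars, n = 3), as log2 level relative to the array's 75th percentile, each panel spanning the same range of log2 units. Psmb8 steps down to between 2.53 and 3.11 in Th17 cells, against 3.88 to 4.14 in naive cells, while Psmb5 is highest in Th17 cells.

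Each inducible subunit was set against the standard subunit it replaces, as the difference of their log2 levels on the same array, with the naive mean set to 0, so that a shift of a whole array cancels. The 3 pairs gave 3 different patterns, in 9 exact two-sided permutation tests whose smallest possible p with 3 arrays against 3 is 0.1 (0.129 after Benjamini-Hochberg over the 9), so no difference could pass 0.05. The ratio of Psmb8 to Psmb5 was -1.23, -1.45 and -2.26 on the Th17 arrays, -0.51, -0.69 and -0.46 on the Th1 arrays, and 0.09, -0.15 and 0.06 on the naive arrays. The 3 groups were separated, and the ratio was 3.13-fold lower in Th17 than in naive cells, 2.13-fold lower in Th17 than in Th1 cells and 1.47-fold lower in Th1 than in naive cells (exact p = 0.1 each).

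The ratio of Psmb9 to Psmb6 was -0.21, -0.0042 and -0.24 on the Th17 arrays, 0.35, 0.45 and 0.55 on the Th1 arrays, and 0.01, 0.04 and -0.06 on the naive arrays. It was higher on every Th1 array than on any other (0.45 against naive cells and -0.60 in Th17 against Th1 cells, exact p = 0.1 each), and Th17 and naive arrays overlapped (-0.15, exact p = 0.2). The ratio of Psmb10 to Psmb7 was -1.22, -1.12 and -1.21 on the Th17 arrays, -0.95, -1.12 and -1.32 on the Th1 arrays, and 0.09, 0.04 and -0.13 on the naive arrays. Both effector groups lay below all naive arrays, by 1.18 in Th17 and 1.13 in Th1 cells (exact p = 0.1 each), and overlapped each other (-0.05, exact p = 0.8).

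**Figure D4:**
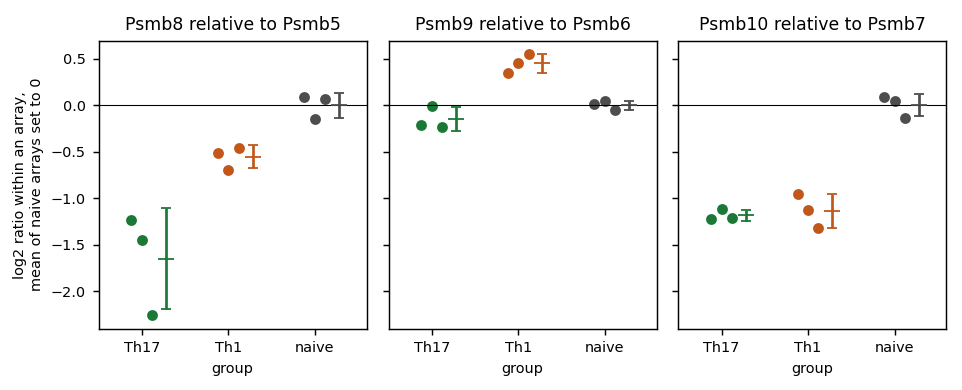
Log2 ratio of each inducible catalytic subunit to its standard counterpart within an array (points), with the mean of naive arrays set to 0 and group mean and SD as bars (n = 3). Psmb8 to Psmb5 falls furthest in Th17 cells, Psmb9 to Psmb6 is highest in Th1 cells, and Psmb10 to Psmb7 is near -1.2 in both effector groups.

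The 250 bases before the start of 4 of these genes are shown because the genes took different courses: Psmb8 fell furthest in Th17 cells, Psmb9 was at -0.03 in Th1 against naive cells, Psmb5 rose in Th17 cells and Psmd8 parted the effector groups most. The sequences are from RefSeq on GRCm38.p6, read 5′ to 3′ on the strand of the gene, at chr17:34197945-34198194 (+) for Psmb8, chr17:34187331-34187580 (-) for Psmb9, chr14:54617996-54618245 (-) for Psmb5 and chr7:29180674-29180923 (-) for Psmd8. Capitals mark matches to the motifs searched on both strands, a gamma-activated site (TTCNNNGAA) in Psmb8, a CCAAT box (as ATTGG on this strand) in Psmb9 and the core of an antioxidant response element (TGACNNNGC) in Psmb5.
Psmb8: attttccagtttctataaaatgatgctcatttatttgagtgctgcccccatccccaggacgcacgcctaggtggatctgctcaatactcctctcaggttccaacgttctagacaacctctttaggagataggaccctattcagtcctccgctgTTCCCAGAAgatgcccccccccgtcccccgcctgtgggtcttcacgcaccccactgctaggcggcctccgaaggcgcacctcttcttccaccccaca
Psmb9: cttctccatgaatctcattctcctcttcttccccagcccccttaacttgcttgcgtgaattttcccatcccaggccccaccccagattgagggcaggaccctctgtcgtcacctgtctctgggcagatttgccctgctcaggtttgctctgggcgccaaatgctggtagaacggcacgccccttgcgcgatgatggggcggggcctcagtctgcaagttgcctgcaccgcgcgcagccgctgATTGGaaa
Psmb5: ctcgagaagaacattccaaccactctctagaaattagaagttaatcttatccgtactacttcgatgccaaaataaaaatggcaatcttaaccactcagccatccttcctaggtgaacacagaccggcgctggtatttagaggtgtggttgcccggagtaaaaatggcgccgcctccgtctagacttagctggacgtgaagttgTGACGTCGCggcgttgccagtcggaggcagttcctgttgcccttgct
Psmd8: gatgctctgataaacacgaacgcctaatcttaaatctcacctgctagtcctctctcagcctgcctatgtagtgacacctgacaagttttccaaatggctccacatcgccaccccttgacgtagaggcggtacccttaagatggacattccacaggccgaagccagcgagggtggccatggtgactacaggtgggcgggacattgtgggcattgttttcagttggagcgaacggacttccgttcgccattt

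The matches lie 97 to 89 bases before the start of Psmb8, 8 to 4 bases before that of Psmb9 and 47 to 39 bases before that of Psmb5. The interferon-stimulated response element was searched as GAAA, NN and GAAA in a row. Of the 6 windows of the 5 immunoproteasome genes, 0 held that element, 1 (16.7%) the gamma-activated site, 0 the antioxidant core and 1 (16.7%) a CCAAT box. Of the 33 windows of 31 standard subunits, 3 (9.09%), 0, 5 (15.2%) and 12 (36.4%) held them in the same order, against 2.98%, 7.02%, 10.2% and 33.8% of all 32851 windows of that length. A match is a run of letters and is no sign of binding. The window of Psmb9 overlaps that of Tap1, which lies on the other strand, by 225 bases, and the 2 genes took different values in Th1 against naive cells. Tap1, a chain of the peptide transporter, had levels of 2.64, 2.45 and 2.12 in Th17 cells, 1.94, 2.19 and 2.27 in Th1 cells, and 3.15, 3.48 and 3.26 in naive cells, and fell by 1.17 ± 0.16 in Th1 (adjusted p = 0.00051) and by 0.89 ± 0.16 in Th17 cells (adjusted p = 0.00196) against naive cells.

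The genes around the proteasome were read from lists of its builders, partners, regulators and neighbours in antigen processing. Of the 5 chaperones that build the 20S core, Psmg2 rose by 0.89 in Th1 and by 0.84 in Th17 cells against naive cells. Psmg1 rose by 0.32 in Th1 against naive cells (adjusted p = 0.0137, and 0.0514 without naive replicate 2). Psmg4 was 0.44 higher in Th17 than in Th1 cells (adjusted p = 0.0318), a call lost without Th1 replicate 2 or 3, Th17 replicate 2 or 3, or naive replicate 3. Pomp, which matures the beta ring, was not called (0.19, -0.11 and 0.08 in Th17 against Th1, Th1 against naive and Th17 against naive cells). Of 15 proteins that bind the proteasome, 6 fell and 1 rose in Th1 against naive cells, 5 fell and 2 rose in Th17 against naive cells (of all genes 30.4% fell and 23.5% rose in Th1, and 29.7% fell and 24.4% rose in Th17 cells), and 0 were called in Th17 against Th1 cells (1 higher and 0 lower at an unadjusted p under 0.05 in limma). Ubqln4 and Ubqln1, shuttles for ubiquitylated proteins, fell by 0.94 and 0.84 in Th1 cells and by 0.88 and 0.79 in Th17 cells, and Uchl5, a deubiquitinase of the 19S cap, fell by 0.72 and 0.44. Txnl1, a thioredoxin-like protein of the cap, rose by 0.77 and 0.87. The slide block ended some of these: the Th17 calls against naive cells were lost for Psmg2 (adjusted p = 0.0867), Uchl5 (0.0664) and Txnl1 (0.0786), and the Th1 call of Psmg1 was lost (0.106).

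Among 7 regulators of proteasome genes, Nfe2l1, the transcription factor that raises subunit genes when the proteasome is impaired, had levels of 0.35, 0.08 and 0.41 in Th17 cells, 0.24, 0.13 and 0.20 in Th1 cells, and 0.21, 0.48 and 0.23 in naive cells. These groups overlapped and no comparison was called (adjusted p between 0.462 and 0.856). Nfe2l2, the related oxidative stress factor, fell by 1.22 in Th17 against naive cells (adjusted p = 0.000698; -0.69 with slide as a block, adjusted p = 0.0727). Ngly1, dim and above background on 8 arrays, rose by 1.80 in Th1 and 2.18 in Th17 cells, and Ufd1 by 0.45 and 0.61. Of the 7, 2 rose and 2 fell in Th1 cells, where 23.5% and 30.4% of all genes did. In Th17 cells 2 rose and 1 fell, where 24.4% and 29.7% did. Of 6 genes of ubiquitin and its activating enzymes, 2 rose and 2 fell in Th1 against naive cells, where 23.5% of all genes rose and 30.4% fell, among them the polyubiquitin gene Ubb at 0.59.

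Of 11 genes of class I antigen processing, 5 fell and 1 rose in Th1 against naive cells, 4 fell and 2 rose in Th17 against naive cells, where 30.4% and 29.7% of all genes fell and 23.5% and 24.4% rose, and 3 rose, where 8.25% of all genes did, and 0 fell in Th17 against Th1 cells (3 higher and 1 lower at an unadjusted p under 0.05 in limma). The transporter chain Tap2 fell by 0.74 and 0.93 in Th1 and Th17 cells, and Tapbpl, a peptide editor, by 1.90 and 2.40, while the trimming peptidase Erap1 rose by 0.71 and 1.17. The chaperones Calr and Pdia3 were 0.75 and 0.98 higher in Th17 than in Th1 cells. Of 11 interferon signalling genes linked to the immunoproteasome, 7 fell and 3 rose in Th1 against naive cells, and 6 fell and 3 rose in Th17 against naive cells, beside the same shares of all genes. Irf1, a factor that binds immunoproteasome promoters, had levels of 3.61, 3.97 and 3.36 in Th17 cells, 2.57, 3.33 and 2.51 in Th1 cells, and 5.24, 4.56 and 4.34 in naive cells. It fell by 1.91 ± 0.30 in Th1 (adjusted p = 0.000964) and by 1.07 ± 0.30 in Th17 cells (adjusted p = 0.0165), with both effector groups below all naive arrays, and the Th17 call was lost without naive replicate 1 or Th17 replicate 3 (adjusted p up to 0.0524) and with slide as a block (-1.28, adjusted p = 0.153). Ifngr2, a chain of the interferon gamma receptor, fell by 4.21 and 1.55 (the Th17 value with slide as a block was -1.86, adjusted p = 0.0664).

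Of the 10 proteasome genes with a second probe, the probes gave the same call for 7, 8 and 7 in Th17 against Th1, Th1 against naive and Th17 against naive cells, and opposite calls for 0. The 2 genes that only share the letters moved as follows: Psmc3ip fell by 0.78 in Th1 and by 0.71 in Th17 against naive cells (the Th17 call was lost with slide as a block, adjusted p = 0.0612), and Psme3ip1 fell by 0.27 in Th1 against naive cells (adjusted p = 0.0389), a call lost without any single Th1 array, Th17 replicate 2, or naive replicate 2 or 3. The plot of medians by setting shows how far the distance between standard subunits and all genes rests on the processing.

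**Figure D5:**
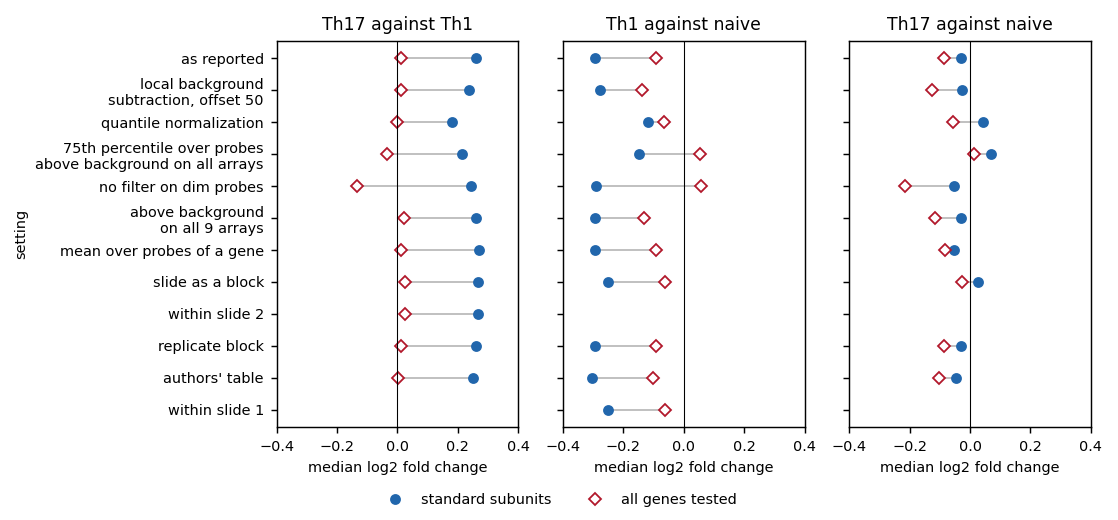
Median log2 fold change of the standard subunits (filled) and of all genes tested (open) in the 3 comparisons under each processing setting, normexp left out. In Th17 against Th1 cells the subunits stay right of all genes in each setting shown (0.18 to 0.27), and in Th1 against naive cells they stay left of them, by least after quantile normalization (-0.12 against -0.07).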

How the data were processed

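RNA of the 9 sorted samples, labelled with Cy3, was hybridised to 1-colour Agilent arrays. The array files, as deposited by the authors, hold the processed signal of each spot, an intensity that is linear and had its background removed by Agilent Feature Extraction (version 10.7.3.1 per the file headers, 10.5 per the submitters' processing notes) and not normalized between arrays. The authors' deposited series table gives values in log2, and these matched the percentile-shifted intensity after centring each gene, with a baseline per probe that is unstated and array medians of -0.10 to 0.29. The genome build in the headers is older than that of the RefSeq tables, so these gave names and promoter windows only.

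Outlier and control spots were left out, each array's 75th percentile was subtracted from its log2 intensity, spots of a probe were averaged, probes well above background on at least 3 arrays were kept, and the brightest probe stood for a gene. RefSeq accessions named 27228 of 39429 probes, and 13125 of the 19146 genes tested had a symbol. No probe spot was saturated. The number of arrays limits the precision.

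One fit of all 9 arrays was made with limma 3.58.1 (R 4.3.3) and eBayes, with Benjamini-Hochberg adjustment, and the method was tested on simulated data. Full statistics were given for the immunoproteasome and standard catalytic genes and for up to 5 rises and 5 falls per comparison, and the other lists named up to 4 genes per comparison by smallest p, with Nfe2l1, Pomp, Tap1 and Irf1 in any case. Some genes of the lists are not reported here. The members and lists were chosen with earlier results of these data known. Psme3ip1 was set apart after the rule was written. Alternatives were quantile normalization, another percentile, filters, the mean over probes, slide and replicate blocks, single slides, leaving out each array and the authors' table, and, added after the data were seen, normexp on the median spot signal, local background subtraction (both with an offset of 50) and counting Psme3ip1.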

Additional observations from a re-analysis of the deposited data

Results flagged for a closer look

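Psmd8, a lid subunit of the 19S cap, was the 1 proteasome gene whose effects against naive cells were called in opposite directions in the effector groups, at 0.40 in Th17 and -0.39 in Th1 cells, with a tested difference between Th17 and Th1 cells of 0.79 (limma adjusted p = 0.00111). That difference was called without any single array (adjusted p up to 0.00714), with slide as a block and within slide 2. Each change against naive cells was lost with slide as a block (adjusted p = 0.0991 and 0.101). The Th17 and Th1 changes share the naive arrays.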

How the results depend on the processing

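Counts of standard subunits, given as higher and lower, were 9 and 0 in Th17 against Th1, 1 and 21 in Th1 against naive, and 9 and 4 in Th17 against naive cells. Leaving out single arrays gave 2 to 7 and 0 to 0, 0 to 2 and 12 to 21, and 6 to 9 and 4 to 6 in these comparisons. The medians were 0.22 to 0.29, -0.32 to -0.26 and -0.0701 to 0.0312. In those fits 5.31% to 7.59% of all genes were called higher and 4.75% to 6.96% lower in Th17 against Th1 cells. In Th1 against naive cells 19.9% to 25.0% were called higher and 25.1% to 32.5% lower. In Th17 against naive cells 21.1% to 24.3% were called higher and 24.9% to 29.7% lower. In Th17 against Th1 cells the higher count was 5 after quantile normalization (median 0.18), where 8.32% of all genes were called higher. It was 4 with the percentile over probes above background on all arrays, where 7.19% were. It was 3 with no filter on dim probes, 4 with slide as a block and 1 within slide 2, where 3.15%, 6.04% and 3.80% were. In Th1 against naive cells the counts were 6 and 7 after quantile normalization (median -0.12), where 23.3% and 27.3% of all genes were called. They were 3 and 8 with the other percentile (median -0.15), where 28.4% and 23.4% were. With no filter they were 0 and 11, where 12.5% and 15.6% were. With slide as a block they were 0 and 6, where 19.7% and 21.7% were. With local background subtraction they were 2 and 16, where 18.1% and 30.0% were. Within slide 1 (1 Th1 array, so no replicated test) the median was -0.25. In Th17 against naive cells the counts were 3 and 0 with slide as a block (median 0.0256), where 14.4% and 13.1% of all genes were called. The median there was 0.0434 after quantile normalization and 0.0704 with the other percentile. The replicate numbers were not taken as pairs, since the labels state no pairing. Residuals of arrays with the same number had a Pearson r of -0.00656 to 0.175 across genes, and those with different numbers -0.197 to 0.0647. The highest values were those of Th1 and Th17 replicate 1 (0.168) and of Th1 and Th17 replicate 2 (0.175). Whether these were paired was not tested. A replicate block gave 7 and 0, 1 and 20, and 8 and 4. Counting Psme3ip1 gave 9 and 0, 1 and 22, and 9 and 4. Normexp gave 0 and 0 in all comparisons, with medians of 0.82, -0.75 and -0.04, and turned Psmd14 (-0.15), Psmg1 (-0.28), Ufd1 (-0.15), Ubb (-0.0744) and Uba1 (-0.27) in Th1 against naive cells. Its fit put the 5th percentile of spot intensity at 2448 on Th1 array 2, against 59.2 to 82.5 on the others. For the genes named by rule, 2957 values over all settings stayed on their side of the threshold, 46 passed it newly, 293 lost it and 5 turned. The cause was not tested. The number of arrays, 3 a group, limits what could be called.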
